A study of Mus musculus with 30 samples.

Results

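In the mouse hindbrain, 57 of 45281 array probes (0.126%) were detected in the polysome-bound RNA of serotonergic cells and on no array of noradrenergic cells. A probe is a short oligonucleotide that captures the labelled copy of a transcript, and its detection p-value is the share of negative control probes that were at least as bright. A probe belonged to the group when its detection p-value was under 0.01 on at least 6 of the 7 Slc6a4 TRAP arrays and on 0 of the 8 Slc6a2 TRAP arrays. At least 6 of the 7 Slc6a4 TRAP arrays detected 16023 probes, of which the group was 0.356%. The mirror rule, at least 7 of 8 Slc6a2 TRAP arrays and 0 of 7 Slc6a4 TRAP arrays, gave 45 probes. The probes were chosen by these detection p-values of the TRAP arrays, so their levels in TRAP RNA and the contrast between the lines are described without a test. Total RNA was not used by the rule, nor were the labels for lipopolysaccharide (LPS) treatment and sex. Even so, detection on at least 6 of the 7 Slc6a4 TRAP arrays kept out probes undetected on all arrays of either treatment or either sex. The responses to LPS and sex that members could show in Slc6a4 TRAP were therefore limited by the rule.

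Serotonergic neurons of the raphe nuclei make serotonin from tryptophan and take it back up through the transporter that Slc6a4 encodes. Noradrenergic neurons, among them those of the locus coeruleus, use the noradrenaline transporter encoded by Slc6a2. Serotonergic neurons of the medulla are part of the circuit that drives heat production during fever. In translating ribosome affinity purification (TRAP), a green fluorescent tag on a ribosomal protein is expressed in a chosen cell type, and an antibody against the tag pulls down the ribosomes of those cells with their transcripts.

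Adult mice of 6 to 12 weeks, housed at 30 °C, carried, on a B6;FVB background, the transgene Tg(Slc6a4-EGFP/Rpl10a)JD60Jdd (the Slc6a4 line) or its counterpart Tg(Slc6a2-EGFP/Rpl10a)JD1538Jdd (the Slc6a2 line), and were given LPS at 100 ug per kg or sterile PBS. Both lines carry the EGFP-tagged ribosomal protein, and it marks whichever hindbrain cells use the driver gene. The 7 Slc6a4 TRAP arrays held 4 LPS arrays (both sexes, 2 each) and 3 PBS arrays (2 females and 1 male), and the 8 Slc6a2 TRAP arrays held 2 of each sex and treatment. Total hindbrain RNA came from the lysate before (Pre-IP) or after (Unbound) the precipitation, with 8 arrays of the Slc6a4 line (2 of each sex and treatment) and 7 of the Slc6a2 line (1 LPS male, 2 of each other group). Every Pre-IP array belonged to amplification batch 1 and every Unbound array to batch 2, so these cannot be told apart. The labels do not say whether an array is 1 mouse, and if arrays share mice or extracts, p-values measure technical spread in part. TRAP and total RNA arrays of 1 line, sex, treatment and batch may share a mouse. Comparisons of TRAP with total RNA, and their SEs, did not model such pairing.

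Between 17012 and 19424 probes were detected per Slc6a4 TRAP array, 15432 to 19101 per Slc6a2 TRAP array, 20990 to 23122 per total RNA array of the Slc6a4 line and 20395 to 22652 of the Slc6a2 line. Fewest were detected on 1 batch 2 array of Slc6a2 TRAP (PBS, male), and without it the rule gave 67 probes. With any other TRAP array left out, it gave 60 to 84. Leaving an array out only loosens the rule, as 1 missed Slc6a4 TRAP array stayed allowed, so these counts could not fall. The files name no gene for any probe, so transcripts are given by probe ID, and the serotonergic identity of the precipitate was not checked against marker genes here. Probe sequences were not used here.

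Most of the 57 probes were dim. Levels are normalised log2 intensities, on which 1 unit is a doubling of the background-corrected signal plus a small constant. Their mean level in Slc6a4 TRAP had a median of 7.09 and ran from 6.26 to 11.14, against a median of 8.66 for the 16023 probes detected in at least 6 of the 7 arrays. A mean above 8 was reached by 7 probes, and 25 had a mean below 7. All 7 Slc6a4 TRAP arrays detected 33 probes (median level 7.33), and 24 were seen on 6 of 7 (median level 6.71).

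ILMN_1237934 was the brightest of the 57. It read 10.84, 11.14 and 11.64 on the 3 PBS arrays of Slc6a4 TRAP and 10.63, 11.20, 11.23 and 11.27 on the 4 LPS arrays. Its 7 values stayed within about 1 unit of each other, at a mean of 11.14 ± 0.32 (SD, n = 7). On the 8 Slc6a2 TRAP arrays it lay between 4.70 and 5.22, all undetected. A probe that is undetected on every array of a set has only an upper bound there, taken as the mean, over arrays, of the higher of its own value and the dimmest detected probe. By that bound ILMN_1237934 was at least 30.9-fold higher in Slc6a4 TRAP than in Slc6a2 TRAP.

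The second brightest, ILMN_1249486, stood at 9.20 ± 0.38 (SD, n = 7), at least 8.05-fold above Slc6a2 TRAP. Only 3 of the 57 had a bound of 4-fold or more, ILMN_2677859 being the other, and 22 had one of at least 2-fold. ILMN_2677859 reached 4.07-fold through its LPS arrays (mean 9.88), while its PBS mean of 5.98 lay below the bound for Slc6a2 TRAP. At the lower end, ILMN_2829250 and ILMN_2734212 both averaged 6.26 in Slc6a4 TRAP, with bounds of at least 1.05-fold for each. The dimmest detected probe of a Slc6a2 TRAP array lay between 5.87 and 6.71, so the lower part of the list sat where detection itself began. On at least 1 Slc6a2 TRAP array, 19 of the 57 (33.3%) had a detection p-value under 0.05, although none was under 0.01. The same share among other probes undetected there was not computed, so this count is a description. In bulk RNA of this kind, fewer cells of a type and less RNA per cell cannot be told apart.

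Several probes much brighter than most of the 57 lay just outside the rule. By a single Slc6a2 TRAP array, 103 probes missed it, being detected on at least 6 of 7 Slc6a4 TRAP arrays and on exactly 1 of 8 Slc6a2 TRAP arrays. Among these, ILMN_2713714 averaged 12.00 and ILMN_2729817 averaged 11.59 in Slc6a4 TRAP, both above ILMN_1237934. A further 34 probes were detected on 5 of 7 Slc6a4 TRAP arrays and on no Slc6a2 TRAP array, at a median level of 6.34. The rule therefore does not rank probes by how far the lines differ.

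The probes were not equally stable across the 7 Slc6a4 TRAP arrays. The SD of a probe had a median of 0.48 and ran from 0.17 to 2.14. Other probes detected in at least 6 of 7 arrays, with a mean between the lower and upper quartiles of the 57 (2903 probes), had a median SD of 0.46. The largest SD belonged to ILMN_2677859. The 3 batch 1 arrays detected 49, 50 and 52 of the probes and the 4 batch 2 arrays 55 to 57, while over all probes the batch 1 arrays detected 17012 to 17928 and the batch 2 arrays 18371 to 19424. Of the 24 probes seen on 6 of 7 arrays, the missing array was the batch 1 LPS male for 8, the batch 1 PBS female for 7 and the batch 1 LPS female for 5. The part of overall detection in this was not tested. The batch 2 minus batch 1 difference in level had a median of -0.027 over the 57 and quartiles of -0.39 and 0.24, against -0.14 and 0.24 over the 16023 probes, and 2 probes, ILMN_2618148 (-1.35) and ILMN_2997975 (-1.20), differed by more than 1 unit.

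The rule could also be set in 1 batch and read in the other. Set within batch 1 (at least 2 of 3 Slc6a4 TRAP arrays, 0 of 4 Slc6a2 TRAP arrays), it gave 472 probes, and within batch 2 (at least 3 of 4, 0 of 4) it gave 375. Both lists shared 73 probes, 15.5% of the first and 19.5% of the second, and the 57 are among the shared by construction of the rule. Of the 472 probes of batch 1, 71.6% were higher in Slc6a4 than in Slc6a2 TRAP in batch 2, by a median of 0.48, against 58.2% of the probes detected in at least 6 of 7 Slc6a4 TRAP arrays. Of the 375 probes of batch 2, 76.3% were higher in batch 1, by a median of 0.55, against 59.7%. Both lists hold the 57, for which the rule used the arrays of both batches. The comparison probes were also chosen with arrays of both batches, so these shares are not like for like and are a description. Titles carry a letter, which may stand for a slide, and in TRAP the lines share only letter C, with 4 arrays, so letter and line largely cannot be told apart.

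Total hindbrain RNA divided the 57 probes. At least 4 of 8 total RNA arrays of the Slc6a4 line detected 26 of them (45.6%), against 98.8% of the 16023 probes detected in at least 6 of 7 Slc6a4 TRAP arrays. At least 4 of 7 arrays of the Slc6a2 line detected 27 (47.4%), against 98.4%. Undetected on all 15 total RNA arrays were 14 probes (24.6%, against 0.268%), and 7 were detected on all 15 (12.3%, against 90.2%). The 16023 probes were brighter in TRAP (median 8.66 against 7.09), and the part of level in these shares was not tested.

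The lines resembled each other in which probes were present. At least 4 arrays of each line detected 25 probes. Such presence held in the Slc6a4 line alone for 1 probe, ILMN_3160989 (5 of 8 arrays against 2 of 7), and in the Slc6a2 line alone for 2, ILMN_1232416 (4 of 7 against 1 of 8) and ILMN_2997975 (5 of 7 against 0 of 8). These names were chosen after their values were seen. ILMN_2997975 thus appeared in the total RNA of the Slc6a2 line but not in its TRAP RNA, and in TRAP RNA of the Slc6a4 line but not in its total RNA. In the Slc6a2 line detection began lower in total RNA (5.27 to 5.63) than in TRAP RNA (5.87 to 6.71). The median of ILMN_2997975 in Slc6a2 total RNA, 5.40, would be undetected in TRAP, so its presence in these fractions is not compared at like levels. Single total RNA arrays detected 19 to 31 of the 57 probes in the Slc6a4 line and 21 to 27 in the Slc6a2 line. In the Slc6a4 line the Pre-IP arrays detected 25 to 31 and the Unbound arrays 19 to 23, with more probes detected overall on the Pre-IP arrays (22460 to 23122, against 20990 to 21871). Of the 57, 19 were undetected on all 8 arrays of the Slc6a4 line and 12 were detected on all 8 (33.3% and 21.1%, against 0.393% and 93.4% of the 16023 probes). In the Slc6a2 line these counts were 18 on none of 7 arrays and 8 on all 7 (31.6% and 14.0%). The shares of the 16023 probes were not computed for that line. The counts move with the detection threshold. With p under 0.05 the probes detected on no total RNA array numbered 3 and those on all 15 numbered 16. With p under 0.001 these were 28 and 1. Shares of the 16023 probes at these thresholds were not computed.

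Set against total RNA of the same line, the probes ranged from strongly concentrated in Slc6a4 TRAP to depleted there. The difference, TRAP minus total RNA, is a description, since the rule required detection in Slc6a4 TRAP, and for probes undetected in all 8 total RNA arrays it is a lower bound. It had a median of 1.52, against 0.13 for the 16023 probes. More than 1 unit higher in TRAP were 41 of the 57 (71.9%), against 12.6% of the 16023, and more than 1 unit lower was 1 (1.75%), against 8.91%. The remaining 15 lay within 1 unit either way. Without background correction, and with total RNA at its measured values, the median of the 57 shrank to 0.77 from 1.79.

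ILMN_1237934 had the largest difference, 5.10 units (SE 0.16). On the 8 total RNA arrays of the Slc6a4 line it lay between 5.22 and 6.96 and was detected on 6. In the Slc6a2 line it lay between 4.55 and 6.63 and was detected on 4 of 7. Detection differed between Pre-IP and Unbound arrays, which are also the 2 batches. All 4 Pre-IP arrays of the Slc6a4 line (mean 6.53) and all 3 of the Slc6a2 line (mean 6.08) detected it, but only 2 of 4 (mean 5.61) and 1 of 4 (mean 5.40) Unbound arrays did. ILMN_2432292 came second, at 3.18 units (SE 0.26) higher in TRAP at measured values, but only 1 of 8 total RNA arrays detected it. That place rests on giving bounds to probes undetected on all 8. Among those, ILMN_2659295 was 3.46 units (SE 0.18) higher in TRAP at measured values.

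The 14 probes without any detection in total RNA had mean levels of 6.47 to 8.04 in Slc6a4 TRAP (median 7.22). The brightest of these was ILMN_2659295. Its 3 PBS arrays in Slc6a4 TRAP read 7.44, 7.84 and 8.32, and its 4 LPS arrays read 7.50, 7.89, 8.43 and 8.83. Both groups overlapped, and the probe was at least 6.38-fold higher than in total RNA of its line. ILMN_1245585, the second brightest, was far steadier, at 7.92 ± 0.20 (SD, n = 7). All 14 were more than 1 unit above their bound in total RNA.

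The 7 probes found on every total RNA array behaved differently. None was more than 1 unit higher in Slc6a4 TRAP than in total RNA, and their differences ran from -1.01 to 0.82. ILMN_1249486 lay between 8.47 and 9.57 on the Slc6a4 TRAP arrays, between 8.01 and 9.49 on the total RNA arrays of that line and between 8.04 and 9.56 on those of the Slc6a2 line. These ranges overlap almost wholly, while on the 8 Slc6a2 TRAP arrays the probe lay between 4.44 and 5.36. By the bound, its level in Slc6a2 total RNA was at least 5.73-fold that of Slc6a2 TRAP. For this probe Slc6a4 TRAP stood near the level of whole hindbrain and Slc6a2 TRAP far below it. Over both kinds of total RNA ILMN_2585676 had the lowest difference, -1.01 (SE 0.30), followed by ILMN_2482116, detected on 8 of 8 and 6 of 7 total RNA arrays, at -0.77 (SE 0.21). Both differed between the batches, which hold different TRAP arrays and different kinds of total RNA, and these cannot be told apart. ILMN_2585676 stood at -0.30 against Pre-IP (batch 1) and -1.97 against Unbound (batch 2). ILMN_2482116 stood at -1.20 and -0.24, so the order of these probes turned between the batches.

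Total RNA of both lines was compared over 15 arrays with 1 mean per line, sex and treatment and a batch term. Detection on at least 3 of the 15 arrays let 33 of the 57 probes into this test, and 24 did not pass that filter. Of the 33, 1 differed between the lines at an adjusted p under 0.05, against 0.0201% of the 24914 probes tested, and their median difference was 0.05, against 0.003 over all probes. ILMN_2585676 was higher in the Slc6a4 line by 2.35 log2 units (SE 0.26, limma adjusted p = 0.00753). In the Slc6a4 line its 4 Pre-IP arrays lay between 7.47 and 8.38 and its 4 Unbound arrays between 9.20 and 9.68. In the Slc6a2 line its 3 Pre-IP arrays lay between 5.92 and 6.45 and its 4 Unbound arrays between 5.73 and 7.57. Within each kind of total RNA the lines did not overlap, and they differed by 1.76 units in Pre-IP and 2.76 in Unbound. The lines share only title letter F in total RNA, where the probe read 8.38 and 9.56 in the Slc6a4 line and 6.56 in the Slc6a2 line. Without the batch term, that is, without the block, the limma adjusted p was 0.341 (difference 2.20). It was 0.0634 without the Unbound array of the LPS female and 0.0697 without that of the LPS male, both of the Slc6a4 line, with differences of 2.26 and 2.32. The difference in TRAP had the same direction as that in total RNA, 6.08 to 8.93 on Slc6a4 arrays against 4.35 to 4.62 on Slc6a2 arrays, where the rule had fixed it.

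No other probe of the 33 passed, and none separated all arrays of the Slc6a4 line from all of the Slc6a2 line upward (against 0.0803% of all probes) or downward (against 0.0281%). ILMN_2643187 had a Slc6a4 minus Slc6a2 difference of 0.43 (SE 0.20, limma adjusted p = 0.571). ILMN_2997975 had one of -0.58 (SE 0.20, limma adjusted p = 0.475) and ILMN_2677859 one of -0.39 (SE 0.23, limma adjusted p = 0.657).

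LPS was compared with PBS in Slc6a4 TRAP over its 7 arrays alone, with terms for sex and batch, because Slc6a2 TRAP arrays hold no detected value of these probes. All 57 probes entered this fit of 19291 probes. At an adjusted p under 0.05, 1 of the 57 passed, against 0.0104% of all probes tested. Their median difference was -0.07, against 0.004 over all probes, and 24 were above and 33 below 0. Every LPS array lay above every PBS array for 1 probe, against 3.24% of all probes, and below for 2, against 3.35%. Those counts are 1.75% and 3.51% of the 57, near the shares of all probes or below them. An unadjusted p under 0.05 was held by 4 of the 57 (limma, 7.02%, against 5.5% of all probes). LPS and PBS differed by more than 1 unit for 4 of the 57, against 2.67% of all probes. The rule kept out probes undetected on all LPS or all PBS arrays of Slc6a4 TRAP, while the fit did not. These shares are therefore not like for like, and the part of the rule in them was not tested.

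The probe that rose was ILMN_2677859. Its 4 LPS arrays in Slc6a4 TRAP read 9.32, 9.89, 10.02 and 10.28, and its 3 PBS arrays read 5.23, 6.16 and 6.56, the lowest of them undetected. The groups stood far apart, and the 4 LPS arrays were higher than any other array of the 30. The difference was 4.01 log2 units (SE 0.26, limma adjusted p = 0.0039), and it was 4.37 within batch 1 and 3.79 within batch 2. Both LPS females and both LPS males were high. So this probe belongs to the list through the LPS arrays and through PBS arrays that barely reached detection. The adjusted p was 0.154 without the LPS female of batch 2 and 0.0877 without the PBS male of batch 2, and 0.155 when the 15 TRAP arrays shared 1 fit, with differences of 3.97, 3.91 and 3.91.

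The same probe stayed low elsewhere. On the Slc6a2 TRAP arrays it lay between 4.80 and 5.70 after LPS and at 4.60, 4.81, 4.86 and about 5 after PBS, all undetected, as the rule required. In total RNA of the Slc6a4 line it lay between 4.53 and 5.82 after LPS, detected on 3 of 4 arrays, and between 4.61 and 5.38 after PBS, detected on 1 of 4. In total RNA of the Slc6a2 line, LPS arrays lay between 4.79 and 5.69 and PBS arrays between 4.67 and 6.34, with 2 detected in each group. LPS and PBS overlapped in both lines, and the difference over all total RNA was 0.25 (SE 0.23, limma adjusted p = 0.872). The LPS difference in Slc6a4 TRAP exceeded that in Slc6a4 total RNA by 3.60 log2 units (SE 0.47), which did not pass over all probes (limma adjusted p = 0.0778). It passed without background correction (2.61, limma adjusted p = 0.00127) and without the total RNA array of the LPS female in batch 2 (3.92, limma adjusted p = 0.018). Of the 57, 0 passed this test (limma, against 0% of the 24218 probes tested) and 1, this probe, had an unadjusted p under 0.05 (1.75%, against 5.38% of all probes). The Slc6a4 total RNA arrays detected 19 of the 57 on none of 8, and for those the test sets a response in TRAP against background. The part that low values near detection had in the total RNA differences was not tested. The rule also limited which responses in Slc6a4 TRAP could enter this test.

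The remaining probes with the smallest p-values in this comparison did not pass. ILMN_1214944 read 6.69, 7.78, 8.01 and 8.15 on the LPS arrays and 5.92, 6.76 and 6.85 on the PBS arrays, a difference of 1.14 (SE 0.46, limma adjusted p = 0.855), with overlap of the batch 1 LPS female and 2 PBS arrays. In total RNA of the Slc6a4 line its LPS minus PBS difference was 1.02 (SE 0.45, limma adjusted p = 0.997), and in that of the Slc6a2 line -0.56 (SE 0.51, limma adjusted p = 0.807). ILMN_2643187 read 6.02, 6.27, 6.57 and 6.75 after LPS and 6.91, 7.03 and 7.80 after PBS, with no overlap, and differed by -0.96 (SE 0.32, limma adjusted p = 0.855). ILMN_2618148 differed by -1.15 (SE 0.45, limma adjusted p = 0.855) with overlap, its highest array being the PBS female of batch 1 at 9.49.

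In total RNA of both lines 0 of the 33 probes tested passed for LPS with limma, against 0.0763% of the 24914 tested, and 3 had an unadjusted p under 0.05 (9.09%, against 7.29%). Their differences ran from -0.50 to 0.56, with a median of -0.005, against 0.002 over all probes. ILMN_2598877 was detected on 1 of 4 LPS and 1 of 4 PBS arrays of the Slc6a4 line, and on 2 of 3 LPS and 0 of 4 PBS arrays of the Slc6a2 line, with an overall difference of 0.50 (SE 0.20, limma adjusted p = 0.587). ILMN_1242714 had a difference of 0.56 (SE 0.23, limma adjusted p = 0.617). ILMN_2893409 had one of -0.43 (SE 0.20, limma adjusted p = 0.684) and ILMN_2585676 one of -0.50 (SE 0.26, limma adjusted p = 0.734). LPS arrays of total RNA detected between 19 and 27 of the 57 probes, and PBS arrays between 20 and 31. Within the Slc6a4 line alone 0 of the 33 passed for LPS (limma, against 0% of all probes), and 2 had an unadjusted p under 0.05 (6.06%, against 4.13%). Within the Slc6a2 line alone 0 passed (limma, against 0.00401%), and 5 had an unadjusted p under 0.05 (15.2%, against 7.71%). No member separated all LPS from all PBS arrays of total RNA upward (against 0.0401%) or downward (against 0.0161%). The difference between the lines in their LPS responses passed for 0 of the 33 (limma, against 0%), and 2 had an unadjusted p under 0.05 (6.06%, against 4.57%). The closest was ILMN_1249486, with a difference between the responses of 1.38 (SE 0.36, limma adjusted p = 0.945). It lay from 8.64 to 9.49 after LPS and 8.01 to 9.16 after PBS in the Slc6a4 line, and from 8.04 to 8.35 after LPS and 8.73 to 9.56 after PBS in the Slc6a2 line.

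For sex, 0 of the 57 probes passed in Slc6a4 TRAP with limma, against 0.0156% of the 19291 tested, and 2 had an unadjusted p under 0.05 (3.51%, against 2.29%). Females lay wholly above males for 1 probe (2.04% of all tested) and wholly below for 1 (2.3%). The rule kept out probes undetected on all Slc6a4 TRAP arrays of either sex, so these shares are not like for like. ILMN_2568719 read 6.67, 6.88, 7.07 and 7.42 in females and 4.65, 5.98 and 6.02 in males, the lowest undetected. The groups did not overlap, and females minus males was 1.57 (SE 0.44, limma adjusted p of 1). In total RNA, where it was detected on 0 of 8 Slc6a4 and 3 of 7 Slc6a2 arrays, the same probe had a difference of 0.36 (SE 0.17, limma adjusted p = 0.999). Females minus males was 1.00 (SE 0.43) for ILMN_2908435, -0.59 (SE 0.36) for ILMN_1226661 and -0.62 (SE 0.38) for ILMN_2772120 in Slc6a4 TRAP, each with a limma adjusted p of 1.

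In total RNA 0 of 33 probes passed for sex with limma, against 0.0321% of all tested, and 1 had an unadjusted p under 0.05 (3.03%, against 3.84%). That probe was ILMN_2997975, at which females minus males gave -0.55 (SE 0.20, limma adjusted p = 0.999). It was undetected on all 8 arrays of the Slc6a4 line. In the Slc6a2 line males lay between 5.59 and 6.77, all 3 detected, and females between 4.51 and 5.40, with 2 of 4 detected. ILMN_1249486 had a difference of 0.34 (SE 0.18, limma adjusted p = 0.999).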

How the data were processed

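The authors deposited 1 table of 45281 probes on 30 Illumina bead arrays, giving for each the bead intensity and its detection p-value. The deposited intensities were not normalised between arrays or background-subtracted, judged from the values (8.2 to 60960). The deposited detection p-values move in steps that imply 936 negative controls. The submitters' processing notes name lumi, without version or role, and bead summarisation is not given in the sources used here. Neither table nor reference paired probes with genes (0 IDs matched), so the gene and marker lists of the plan could not be used.

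Intensities were background-corrected with normexp, quantile normalised over 30 arrays and log2 transformed after adding 16 (neqc, limma 3.58.1, R 4.3.3). A probe entered a fit when 3 or more of its arrays had a detection p under 0.01. P-values came from limma (lmFit, then eBayes with trend) and were adjusted by Benjamini-Hochberg over every probe fitted, the threshold being 0.05. The designs left 3 residual degrees of freedom for Slc6a4 TRAP (terms for treatment, sex and batch), 6 for total RNA and 7 for the difference of LPS responses. The number of arrays limits the precision. The batch number, the replicate number used here, is given by the labels as shared amplification. The deviations of TRAP arrays from their groups correlated across lines by 0.057 on average in the same batch and by -0.054 in different batches. Nearly every group held a single array per batch, whose deviations are equal and opposite, so the second value largely mirrors the first. The fits were also run on simulated data, and the outcome is not reported here.

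The probes, lists and comparisons were chosen with earlier results of these data known. Named probes were those with the 2 smallest p-values per direction in each test and the 2 at each end of each description, and exceptions are marked. Alternatives were the detection threshold, background correction, normalisation, dim-probe filter, array weights, title letter, batch term, design and each array left out.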

Additional observations from a re-analysis of the deposited data

Results flagged for a closer look

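Among 70 sets of 4 to 8 arrays examined for the probes named here, 4 held an array far from the others, about the 1 in 20 that chance gives. ILMN_1237934 read 10.63 in Slc6a4 TRAP on the batch 2 array of the LPS male, below the other 3 LPS arrays at 11.20 to 11.27. ILMN_2997975 read 9.04 in Slc6a4 TRAP on the batch 1 array of the PBS female, above the others at 6.42 to 7.52. ILMN_2482116 read 5.39 in Slc6a4 TRAP on the batch 1 array of the LPS male, below the others at 6.18 to 6.64, and was undetected there alone. ILMN_1226661 read 6.68 in total RNA of the Slc6a2 line on the array of the PBS male in batch 1, above the others at 5.25 to 5.85.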

How the results depend on the processing

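The rule gave 57 probes, 33 when all 7 Slc6a4 TRAP arrays had to detect a probe, 472 and 375 in batch 1 and batch 2 alone and 700 on the letter C arrays. With detection p under 0.001, 7 and 10 of the 57 were detected on at least 4 total RNA arrays of the Slc6a4 and Slc6a2 line, 28 on none and 1 on all. With p under 0.05 these last counts were 3 and 16, and 16 were detected on every Pre-IP array. Shares over all probes at these settings were not computed. The median TRAP minus total RNA difference of the 57 was 1.79 at measured values, 1.26 with separate normalisation, 1.68 with median centring, 0.77 without background correction and 1.67 in batch 1.

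For LPS in Slc6a4 TRAP the count of 1 was 0 in the fit of all 15 TRAP arrays and when every array had to detect a probe, which removes ILMN_2677859, and 0 to 1 with an array left out. For line in total RNA it was 0 without the replicate block and 0 to 1 with an array left out. The block changed no other call. For the difference of LPS responses the count of 0 was 1 without background correction and 0 to 1 with an array left out. ILMN_1236099, undetected in Slc6a4 total RNA, ranged in that test from -1.27 to 0.0098 with an array left out, turning sign without the batch 1 TRAP array of the PBS female. The causes were not tested. Over 471 settings of single probes, 462 kept direction and call, 6 lost a call, 2 gained one and 1 reversed. Most of these settings are of probes that had no call to lose. The 6 lost calls were all of ILMN_2677859 for LPS in Slc6a4 TRAP or of ILMN_2585676 for line, the only results called. Levels near background limit what total RNA can show.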
